A study of Mus musculus with 2 samples.

Results

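The complement system is described here through 32 genes for its components, regulators and receptors in the liver of mouse embryos. The genes were given by name as a list and were matched by symbol, through the GENCODE M21 mouse annotation, to identifiers in the gene tables of both libraries; all 32 were found, of 43346 genes in all. They were grouped by the arm of the cascade in which their product acts: 8 in the classical arm, 4 in the lectin arm, 4 in the alternative arm counted together with C3, 7 in the terminal arm, 7 regulators and 2 receptors. Polyadenylated RNA longer than 200 nucleotides was sequenced with stranded paired-end reads from whole livers of pooled male and female C57BL/6J littermates at embryonic day 14. The 2 libraries, replicates 1 and 2, form a single group with no treatment, genotype or second age, so the study compares no conditions. They are labelled as biological replicates with separate samples but the same donor label, so the spread between them, and any p-value, covers these 2 samples only. Whole tissue was used, so fewer cells of a type and less RNA per cell cannot be told apart.

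Complement is a set of plasma proteins, most of them made by hepatocytes, that mark microbes and cell debris for removal. The classical arm starts when C1q meets antibody or debris, the lectin arm when a collectin such as mannose-binding lectin meets sugar, and the alternative arm runs by slow turnover of C3 that factor B and properdin amplify. All of them cleave C3 and then C5, after which C6, C7, C8 and C9 build the membrane attack pore, while regulators in plasma and on host membranes stop the cascade. At this age the liver is also the main site of blood formation, so the tissue holds hepatoblasts, macrophages and many blood precursors.

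Of the 32 genes, 24 reached 1 TPM (a level scaled for transcript length and library size) in both libraries, which is 75% of them, against 50.6% of 21474 protein-coding genes and 26.6% of all genes. At 10 TPM the count was 19 genes (59.4%), against 22.9% of protein-coding genes and 11.8% of all genes. At 100 TPM it was 3 genes (9.38%), against 2.77% and 1.46%. The median level over the 32 genes was 14.3 TPM in replicate 1 and 16.5 TPM in replicate 2, beside 1.17 and 1.20 TPM for protein-coding genes. Summed, the 32 genes held 1204 and 1313 TPM. The 4 highest genes, Vtn, C3, Cfb and Cfi, made up 65.8% and 63.9% of that sum, so most of the complement RNA belonged to the central and alternative components and to a pair of plasma regulators. When the 32 genes were ordered by mean TPM, 19 of 31 neighbouring pairs were apart, in that the lower value of the higher gene exceeded the higher value of the lower gene, and 12 pairs overlapped.

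**Figure D1:**
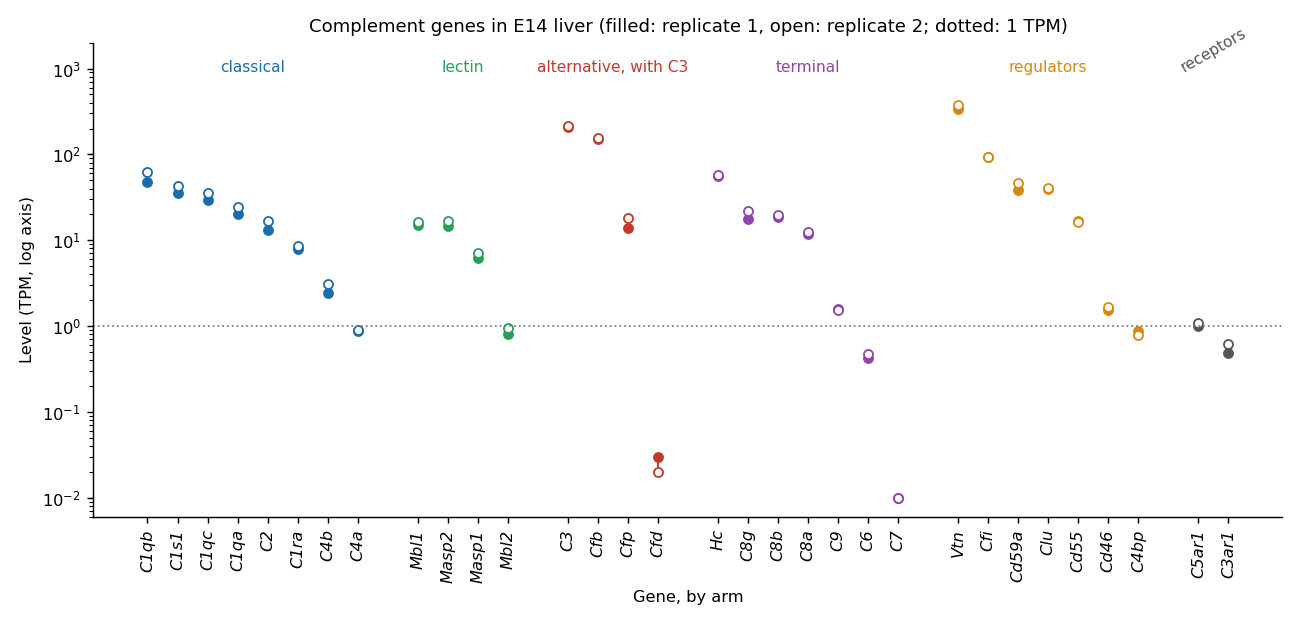
Level of each complement gene in TPM (log axis), grouped by arm and ordered by mean within it; filled circles are replicate 1, open circles replicate 2, and the dotted line is 1 TPM. Vtn, C3 and Cfb lie above 100 TPM in both libraries, while Cfd and C7 lie at or below 0.03 TPM.

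C3 and the alternative arm ranged from over 200 TPM to a trace level of at most 0.03 TPM. C3, whose cleavage is the step on which all arms meet, (chromosome 17, 57203970 to 57228136, minus strand, GRCm38) measured 208 and 217 TPM in replicates 1 and 2 (212 ± 6.28, SD, n = 2). Cfb, or factor B, the protease subunit of the alternative C3 convertase, was at 150 and 156 TPM. Both libraries thus placed C3 above Cfb in TPM with no overlap, and Vtn alone stood above C3, but the mm9 gene table reverses the order of this pair, with Cfb at 27.3 and 35.8 RPKM and C3 at 21.9 and 31.1 RPKM. Cfp, or properdin, which stabilises that convertase and is made mainly by myeloid cells, was lower at 13.9 and 18.0 TPM. Cfd, or adipsin, the protease that activates factor B and is a product of fat cells, had 3 counts in replicate 1 and 2 counts in replicate 2, or 0.03 and 0.02 TPM. Such counts are no larger than the 3 counts that a value of 0 allows. A list of splice junctions on the mm9 genome, described below, held 1 read inside Cfd in each replicate. Cfd was thus at a trace level at most at this depth. Adipocyte markers fixed as a list were near 0 as well: Adipoq, Plin1 and Lep were at or below 0.08 TPM in both libraries. Fabp4, which endothelial cells and macrophages also make, was the exception at 15.1 and 14.9 TPM.

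In this arm 3 of 4 genes were thus above 10 TPM and Cfd was at a trace level at most. The arm's median of 82.1 and 87.2 TPM lies between Cfb and Cfp. The genes for Cfb, C2, C4a and C4b lie together in the major histocompatibility complex of chromosome 17 (Cfb at 34856374 to 34862518 and C2 at 34862604 to 34898265, GRCm38, both on the minus strand, with under 0.1 kb between them). C2, the classical counterpart of factor B, was at 13.3 and 16.7 TPM, so that these adjacent genes differed 11.3-fold in replicate 1 and 9.38-fold in replicate 2. Of windows as long as a read, only 18.5% in the longest Cfb model and 46.9% in that of C2 occur in no other gene of M21; all the shared windows of both are in the gene model Gm20547, so reads of Cfb and C2 could also be assigned there.

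In the classical arm 7 of 8 genes reached 1 TPM, and the recognition subunits and C1s led. C1qb was at 48.3 and 62.5 TPM, C1qc at 29.3 and 35.2 TPM, and C1qa at 19.9 and 24.3 TPM. These genes encode the B, C and A chains, which enter C1q in equal number and are made chiefly by macrophages; they lie side by side on chromosome 4 with 3.62 kb and 2.85 kb between them. Their levels did not overlap, and the order C1qb, C1qc, C1qa held in both libraries, with C1qb 2.42-fold and 2.57-fold above C1qa. C1s1, the protease of C1 that cleaves C4 and C2, was at 35.6 and 43.0 TPM. C1ra, the protease that activates C1s, was at 7.92 and 8.57 TPM, which is 0.222 and 0.199 of the level of C1s1 although the genes lie 6.90 kb apart on chromosome 6.

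C4 was the low point of the classical arm. C4b, which encodes C4, the partner of C2 in the classical C3 convertase, was at 2.41 and 3.06 TPM (2.74 ± 0.46, SD, n = 2). C4a, which encodes the sex-limited protein, a C4 relative, was at 0.87 and 0.90 TPM. Both values of C4b lay far below those of C3 and C2, and C4b exceeded C4a 2.77-fold and 3.40-fold. The level of C4a rests on little: the gene had 87.4 and 169 expected counts, its highest models were short retained-intron fragments (C4a-206 with 36.7% of its TPM in replicate 1, C4a-209 with 34.9% in replicate 2), and M21 types the gene as a processed transcript and the other 31 as protein-coding. Restated as a level per longest model, a scale chosen after the data were seen, C4a was at 0.136 and 0.183 TPM and C4b at 2.08 and 2.25 TPM.

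Reads can also be misassigned between these copies. Of the 5279 read-length windows in the longest C4b model, 83.7% occur in no other gene of M21, and 859 windows are shared with C4a. In the list of splice junctions on the mm9 genome, which gives reads for 2 replicates that it does not name, 1686 and 2607 reads joined sites inside C4b and 251 and 465 joined sites inside C4a. A further 390 and 670 reads joined a site in one gene to a site in the other. Intron 8 of 40 in C4a had 48 and 63 reads, more than any other of them, while the median over C4a introns was 3 and 7 reads and over C4b introns 41.5 and 62 reads.

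C1s1 also has a near copy. Its copy C1s2 was at 0.02 and 0.01 TPM in the mm10 tables, but the mm9 list holds 919 and 1375 reads inside C1s2. In mm9 the gene C1s1 (chromosome 6, 124480363 to 124586998) runs into C1s2, so it was cut at 124574583. The stretch kept for C1s1 held 6322 and 10179 reads, and 1982 and 3080 reads joined it to C1s2. Some of the joining reads lie on introns annotated to C1s1 itself, such as 110 and 151 reads on the intron 124491015 to 124586044. C1s1 shares 219 of 2846 windows with C1s2, and C1ra shares 988 of 2881 with C1rb, which was listed at 0 TPM in both libraries. How much of this signal C1s2 holds is thus not settled by the deposited tables, and the levels of C1s1 and C1ra are uncertain to that extent. The C1q genes, C3 and all 4 lectin-arm genes shared no window with another gene.

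Within the lectin arm, whose recognition molecules bind sugars and whose proteases MASP-1 and MASP-2 cleave C4 and C2, 3 of 4 genes reached 1 TPM. Mbl1, or mannose-binding lectin A, was at 15.1 and 16.3 TPM. Mbl2, or mannose-binding lectin C, was at 0.80 and 0.94 TPM, so that Mbl1 exceeded it 18.9-fold and 17.4-fold. Masp2 was at 14.7 and 16.7 TPM and Masp1 at 6.19 and 7.02 TPM. That order depends on the scale: per longest model Masp2, at 5.94 and 6.57 TPM, overlaps Masp1, and in mm9 RPKM Masp2 (2.74 and 3.50) lies below Masp1 (3.23 and 4.18) in both replicates. Each of the protease genes also makes shorter or alternative products by splicing, and those were measured next.

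Masp2 encodes the MASP-2 protease and, through an alternative exon 5 that ends the reading frame, the short protein MAp19, which lacks the protease domain. The forms part at the end of exon 4 on chromosome 4, and the sequences over the joins, from GENCODE M21 transcripts on GRCm38 (plus strand), are shown because the reads that separate the forms must span them; capitals mark the bases after the join.
Masp2, MASP-2 form, intron chr4:148603819-148605579: agcacacgtgctcagCCCTTTGTTCAGGCC
Masp2, MAp19 form, intron chr4:148603819-148604255: agcacacgtgctcagAGCAGAGCCTCTAAA
In the short form the stop codon TAA ends 14 bases after the join, against 1514 bases in the long form. Reads over these joins in the mm9 list numbered 134 and 258 for the long form and 176 and 276 for the short one, so the short form took 53.6% of the pooled reads (exact 95% interval 50.12% to 56.96%, counting error only). The values of the 2 unnamed replicates were 56.8% and 51.7%. The deposited TPM put the models with the short join at 67.3% and 61.9% of the models that use this donor site. Along the long model, the median of the last 3 joins was 0.426 and 0.260 of that of the first 3. Those first 3 had a median of 237 and 450 reads and are shared with the short form. The MAp19 join thus had more reads than the protease join in both replicates, by a small margin in the second (276 against 258). The joins lie at base 576 of 738 in the short model and at base 566 of 3058 in the long one. Their distances from the 3′ end thus differ, and the part of that in the read counts was not tested.

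Masp1 splices in a like way to give MASP-1, with a protease domain encoded by several last exons, or MASP-3, with a protease domain in 1 exon. The mm10 tables hold a single Masp1 model of 2752 nucleotides, which differs in length from the model of that name in M21 (5345 nucleotides), so they do not separate the forms. In the mm9 list, joins leading to the 16-exon layout had 73 and 177 reads and joins to the 11-exon layout had 106 and 185. The 11-exon layout held 53.8% of pooled reads (49.5% to 58.1%), with 59.2% and 51.1% in the replicates, so a lead of one form over the other was not resolved at this depth.

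**Figure D2:**
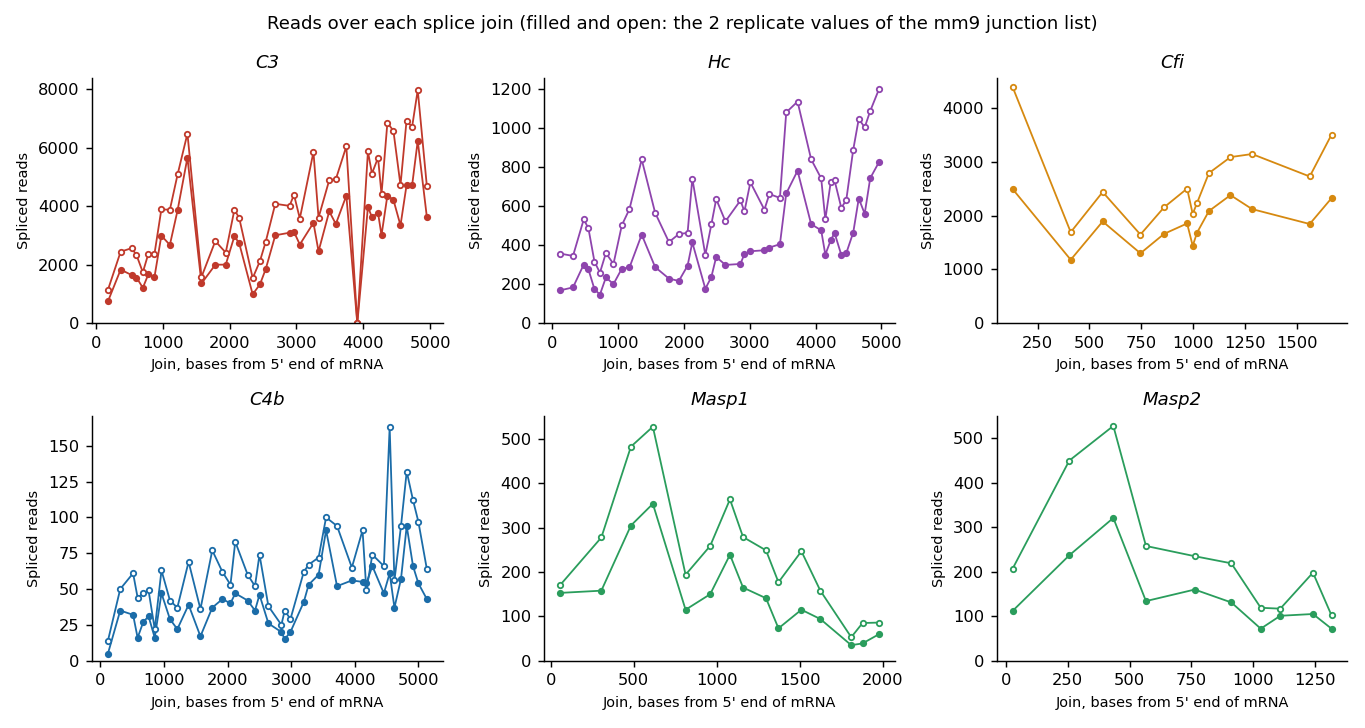
Spliced reads over each join of 6 complement mRNAs against its distance in bases from the 5′ end of the mm9 transcript model; filled and open circles are the 2 replicate values of the junction list. Reads rise towards the 3′ end in C3, Hc and C4b and fall in Masp1 and Masp2. In Masp1 and Masp2 the first joins serve both splice forms described in the text and the last joins only the form drawn. The join of C3 at 0 is annotated 2 bases from a junction that held 2249 and 3652 reads.

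The terminal arm was led by C5 and the C8 chains, while C6 and C7 were below 1 TPM. Hc, which encodes C5, the source of the C5a peptide and of the pore's first subunit C5b, was at 55.4 and 57.3 TPM. Of the chains of C8, which insert into the membrane, C8b was at 18.4 and 19.4 TPM, C8g at 17.5 and 22.2 TPM and C8a at 11.8 and 12.4 TPM. C8a stood at 0.641 and 0.638 of the level of C8b, and the pair lies side by side on chromosome 4 with 11.1 kb between the genes. C8g overlapped C8b.

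C9, which polymerises to form the pore, was at 1.57 and 1.55 TPM, and C6, which binds C5b, at 0.42 and 0.47 TPM. C7, which anchors the complex to the membrane, had 4 expected counts in each library, or 0.01 TPM, and 2 and 3 reads over its splice junctions. The counts of C7 are close to the 3 counts that a value of 0 allows. In C6, 139 and 210 counts were spread over 15 introns with a median of 6 and 11 junction reads. C6, C7 and C9 lie on the same stretch of chromosome 15, C7 174 kb from C6. Thus 5 of 7 terminal genes reached 1 TPM, and the components that join between C5b and C8 were the ones below it.

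Level estimates in this arm depended on transcript models. The full-length model Hc-201 received 31.8% and 36.5% of the TPM of Hc, while Hc-205, a fragment open at both ends, received 27.3% and 24.4% and an intron-retaining model of 694 bases 26.9% and 26.1%. The exon join particular to Hc-205 had 0 of 933 reads at its donor site, which allows a share of up to 0.322%, whereas TPM gave it 46.2% and 40.1% of that site. Expressed per longest model, Hc was at 20.7 and 23.8 TPM. On that scale it lies below C1qb, which has a single model and with which Hc overlaps in gene TPM, so its place in the order rests on how reads were divided among its models.

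For C8a the table likewise gave 26.3% and 24.9% of TPM to C8a-203, a model that skips exon 2. The joins are shown because they decide whether the skip was read (GENCODE M21, GRCm38, minus strand, capitals after the join).
Full-length C8a, exon 1 to 2, intron chr4:104865548-104876279: agagaaggtgaaccaGCGGGTCACCCGAGC
Full-length C8a, exon 2 to 3, intron chr4:104862741-104865453: tgtcaggataaaaagTACCGATACCGGAGC
C8a-203, exon 1 to 3, intron chr4:104862741-104876279: agagaaggtgaaccaTACCGATACCGGAGC
The skipping join had 5 and 1 reads against 98 and 200 for the join of exon 2 to 3, or 1.97% of 304 (0.728% to 4.25%). Counted at the other end of the skip, where the join of exon 1 to 2 had 35 and 68 reads, its share was 5.50% of 109 (2.05% to 11.6%), with 12.5% and 1.45% in the replicates. Both shares lie below the TPM share of 35.6% and 31.1% among models that use these sites.

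**Figure D3:**
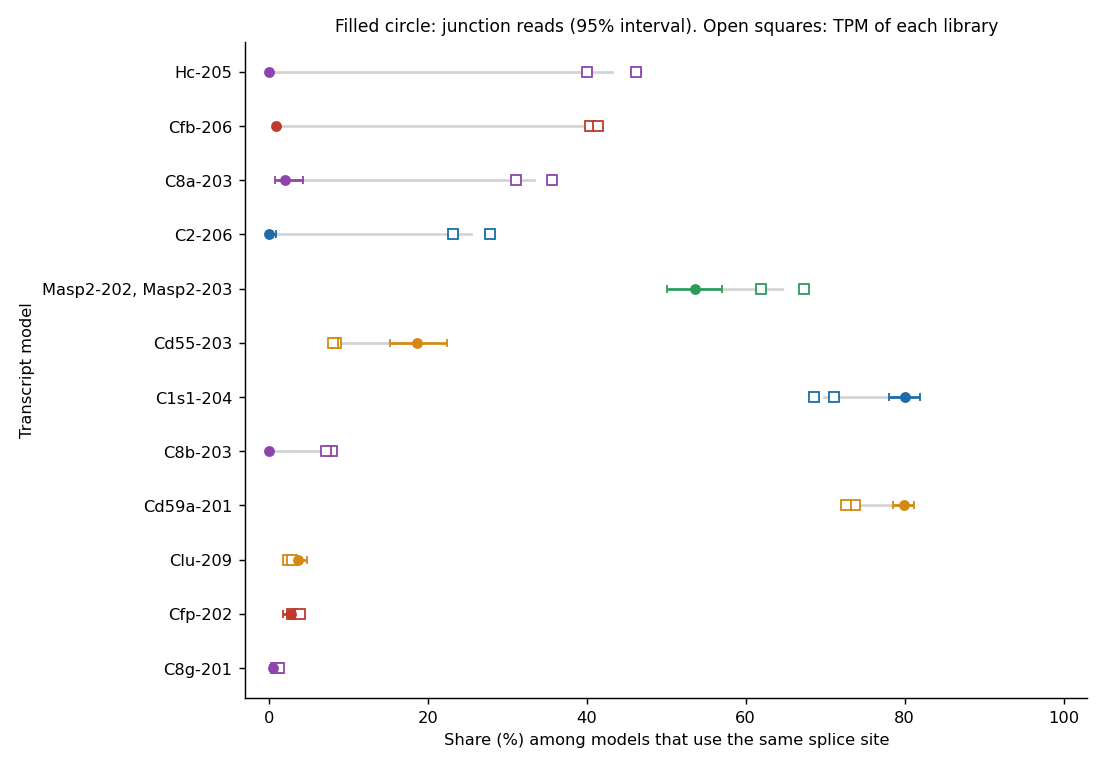
Share of 1 transcript model or pair of models, per gene, among all models that use the same splice site: filled circles give pooled junction reads with exact 95% intervals and open squares the TPM of each library. Hc-205, Cfb-206, C8a-203 and C2-206 have at most 1.97% of junction reads but 23.2% or more of TPM, while for Clu, Cfp and C8g the share of reads and the mean TPM share of both libraries differ by less than 1 percentage point.

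Such sites with at least 200 reads and matching models were compared in 12 genes. The model with the largest gap was taken for each, a rule set after the data were seen. The junction share and the mean TPM share differed by over 10 percentage points in 7 of them and by over 20 points in 4. Cfb-206, which took 34.8% and 36.7% of the TPM of Cfb, had 0.884% of 7351 reads at its donor site (0.683% to 1.13%). C2-206 had 0 of 397 reads, a share of up to 0.756%, beside 27.8% and 23.2% of TPM. By contrast Cd59a-201, the main model of the membrane regulator CD59, had 79.9% of reads and 73.8% and 72.6% of TPM. The junctions were set against mm9 Ensembl models and the tables rest on GENCODE M4. Sites were kept only where the models have the same lengths in both. Masp2, which has an additional short model in mm9, was kept as an exception. C1ra and Masp1 had sites of 539 and 541 reads that were left out because their models do not match. At the gene level the most abundant model was protein-coding in 20 of the 21 genes with at least 5 TPM; the exception was Mbl1, whose single model carries the label nonsense-mediated decay in M21, where its length differs from that in the table.

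Regulators held the highest value of all, and 6 of 7 reached 1 TPM. Vtn, or vitronectin, a plasma protein that blocks insertion of the attack complex and also binds cells and clotting factors, was at 341 and 373 TPM (chromosome 11, 78499091 to 78502324, plus strand, GRCm38; 357 ± 22.9, SD, n = 2). Cfi, or factor I, the protease that cleaves C3b and C4b, was at 93.6 and 92.7 TPM. Clu, or clusterin, which holds the attack complex in solution, was at 39.1 and 40.0 TPM. In gene TPM Vtn exceeded every component of the cascade in both libraries and Cfi every one but C3 and Cfb. Clu overlapped its neighbours Cd59a and C1s1. The place of Cfi depends on the scale: per longest model Cfb, at 88.3 and 97.2 TPM, overlaps it. In mm9 RPKM C1s1 (14.7 and 16.6) overlaps Cfi (13.4 and 18.3). Part of the Vtn value, 36.3% and 35.3% of its TPM, went to the intron-retaining model Vtn-204, and per longest model Vtn was at 252 and 278 TPM, still the highest of the 32.

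C4bp, the C4b-binding protein that serves as cofactor of factor I on C4b, was by contrast low at 0.88 and 0.79 TPM. Of the membrane regulators, Cd59a, which stops C9 from polymerising, was at 38.3 and 46.8 TPM and Cd55, which breaks up convertases, at 16.8 and 16.2 TPM. Both have near copies. Cd55 shares 165 of 2433 windows with Cd55b, and Cd59a shares 4 of 1706 with Cd59b (6.40 and 7.43 TPM). In the mm9 list 2031 and 3042 reads lay inside Cd55, 94 and 136 inside Cd55b, and 347 and 526 joined them. The level of Cd55 is uncertain to that extent. Cd46, a membrane cofactor of factor I that in mice is known mainly from testis, was at 1.53 and 1.66 TPM. Cr1l, or Crry, which serves that function on most mouse cells and was in the list of other complement genes, was at 40.1 and 45.1 TPM. So the cofactor measured at a high level on the membrane side was Cr1l and not Cd46.

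The 2 receptors for the anaphylatoxins were both near or below 1 TPM. C5ar1, the C5a receptor of myeloid cells, was at 0.99 and 1.07 TPM, and C3ar1, the C3a receptor, at 0.48 and 0.61 TPM. Their values did not overlap. In a tissue with 208 TPM or more of C3 and over 55 TPM of Hc, the receptors thus sat far lower in these bulk samples.

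From a fixed list of 34 other complement and related genes, 33 were measured, 22 reached 1 TPM in both libraries and 10 reached 10 TPM. Plg and F2, the plasminogen and prothrombin genes, were at 181 and 190 TPM and at 170 and 183 TPM. C1qbp, a mitochondrial protein that binds C1q, was at 120 and 135 TPM. Serping1, the C1 inhibitor, was at 25.3 and 29.9 TPM, and Cpn1, the catalytic subunit of the carboxypeptidase that trims anaphylatoxins, at 41.2 and 46.7 TPM. Fcna and Fcnb, the mouse ficolins, which are lectin-arm recognition molecules, were at 20.4 and 23.1 TPM and at 10.1 and 16.9 TPM. Fcna exceeded both mannose-binding lectins in each library. Cd200, a membrane glycoprotein, was the 1 gene past 1.5-fold between libraries among those of the list with at least 100 counts, at 0.37 and 0.33 TPM with a log2 ratio of -0.83 in scaled counts. Apcs and Crp, the pentraxins, were at 10.8 and 13.2 TPM and at 11.1 and 12.1 TPM.

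Of the 32 genes, 30 had at least 100 counts, and 0 of these differed by 1.5-fold or more between the libraries. Over all genes 5.80% of 14528 did, and at that share 0 of 30 says little about the members. Cfd and C7 had fewer counts and were not assessed. The ratio between libraries was scaled by TMM, which sets the bulk of genes to equal. In an exact two-sided binomial test on rounded counts, adjusted by Benjamini-Hochberg over 18572 genes, 12 of 30 members differed beyond counting error, 40% of them, beside 40.3% of all genes tested. Of these, 8 were higher in replicate 2 (19.7% of all genes were) and 4 in replicate 1 (20.6%). That share is the background of this pair of libraries, and the test compares 2 libraries only. edgeR's exact test with the common dispersion of the pair (biological coefficient of variation 0.191) called 0 members, beside 2.54% of all 18572 genes. At an unadjusted p under 0.05 it had 0 members and 1098 of all genes. The dispersion was estimated from the same 2 libraries, so the difference between them is part of it. At such low shares over all genes, 0 among 30 members says little about the members.

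**Figure D4:**
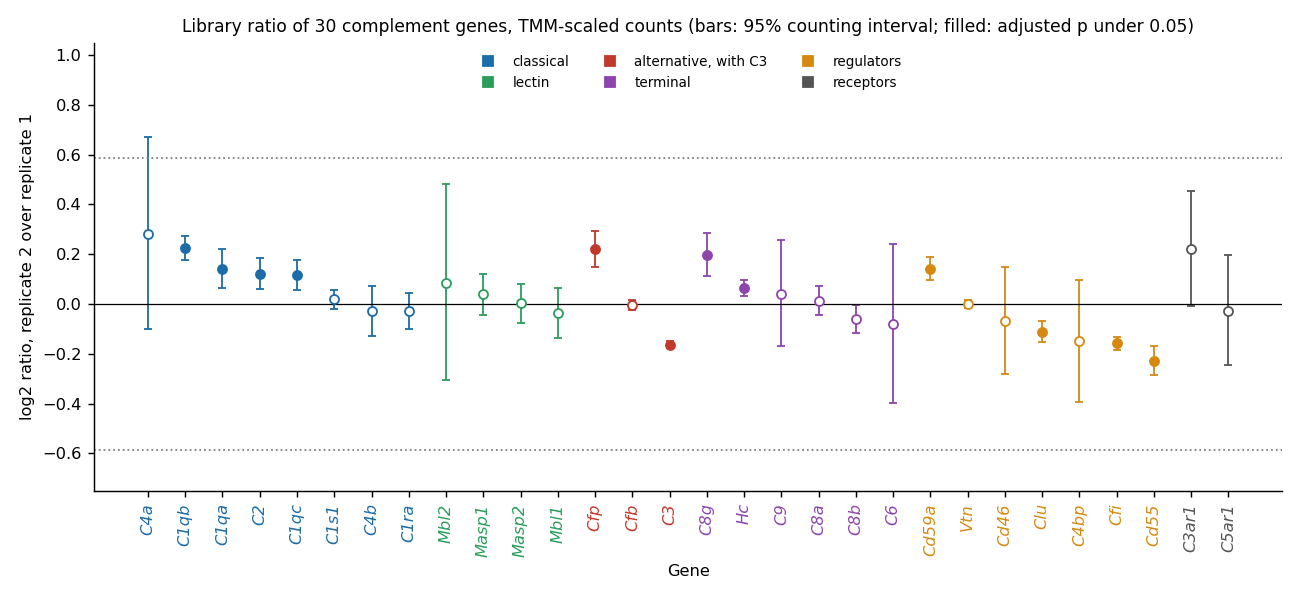
log2 ratio of replicate 2 over replicate 1 in TMM-scaled counts for the 30 genes tested, with 95% counting intervals; filled points have an adjusted p under 0.05 and dotted lines mark 1.5-fold. All 30 points lie between -0.23 and 0.28, inside the 1.5-fold lines.

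C1qb, C1qc and C1qa were higher in replicate 2, by 0.23, 0.12 and 0.14 on the log2 scale (adjusted binomial p = 7.98e-19 for C1qb). C2 was higher by 0.12 and Cfp by 0.22. In the classical arm 4 of 8 genes were thus called higher and 0 lower, beside 19.7% and 20.6% of all genes tested. The C1q genes, which lie side by side, are among those 4. C8g, Hc and Cd59a were also higher, by 0.20, 0.06 and 0.14. On unscaled TPM the log2 ratio of Hc was 0.05, below the median of all genes at 0.14. Those of the other genes called higher lay above that median. C3, Cfi, Clu and Cd55 were lower in replicate 2, with log2 ratios of -0.16, -0.16, -0.11 and -0.23 (adjusted binomial p = 3.32e-145 for C3), of which those of C3 and Clu change sign on unscaled TPM (0.06 and 0.03), where the median of all genes is itself at 0.14. No gene of the 4 in the lectin arm and neither of the 2 receptors was called, beside 40.3% of all genes tested. Such counts are too small to read as a trait of an arm.

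Cell type markers moved between the libraries as well. The counts of markers given here are calls of the same binomial test. Over all genes it called 19.7% higher in replicate 2 and 20.6% higher in replicate 1. Of 11 macrophage markers, 8 were called higher in replicate 2 and 2 lower, with a median log2 ratio of 0.24. Their summed levels were 183 and 235 TPM, with Adgre1 at 7.43 and 11.2 TPM and Csf1r at 8.16 and 11.9 TPM. All 9 neutrophil markers were higher in replicate 2 (median 0.42, sums 1306 and 1912 TPM), among them Elane at 38.1 and 63.7 TPM and Mpo at 125 and 153 TPM. All 6 skeletal muscle markers were higher in replicate 1 (sums 34.9 and 2.14 TPM, Myh3 at 4.47 and 0.08 TPM), and 7 of 8 stellate and mesenchymal markers were too (sums 173 and 122 TPM), with Dcn at 32.7 and 28.5 TPM and Lrat at 0.70 and 0.61 TPM. Hepatocyte markers (8 of 10 higher in replicate 2, median 0.06) stood at 9112 and 10440.5 TPM for Alb and 6698 and 7790 TPM for Afp, and erythroid Alas2 at 847 and 941 TPM. Of 7 endothelial markers 2 were called higher and 2 lower in replicate 2 (Stab2 at 9.18 and 11.1 TPM), and the 3 mesothelial markers summed to 4.40 and 3.48 TPM. The defining markers of liver were thus present at high level in both libraries, and the part of these markers in the ratios of C1q genes and Cfp was not tested.

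The mm9 gene table, in RPKM for 2 unnamed replicates, gave a broadly similar order over the 32 genes (Pearson r = 0.979 and Spearman rho = 0.942 on log2 levels, across genes that share libraries and are not independent). RPKM lay below TPM by a median of 1.87 on the log2 scale, beside 1.78 for 11446 genes of at least 1 TPM. C1ra stood apart at 5.48 and 7.65 RPKM, a log2 ratio to TPM of -0.32, and C3 at the other side at -2.997. C8g lay below C8a there, at 2.999 and 3.459 against 3.18 and 4.24 RPKM, so the order of those subunits depended on the table, as did that of C3 and Cfb and of Masp1 and Masp2.

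Along the C3 mRNA the first 13 joins held a median of 1683 and 2452 reads and the last 13 a median of 3982 and 5880, a ratio of 2.37 and 2.40. For Hc the ratio was 2.03 and 2.02, for C4b 1.90 and 1.94, and for Cfi 1.39 and 1.51. Cfb and Vtn were level, with ratios of 1.01 and 0.99 and of 1.04 and 1.06. The shorter Cfp (2.22 and 2.12), Clu (2.08 and 1.76) and C8b (1.87 and 1.91) had ratios like those of C3, Hc and C4b. Those ratios rest on 2 joins at each end in Cfp and Clu and 3 in C8b. The part of mRNA length in the rise was not tested.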

How the data were processed

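Polyadenylated RNA from mouse liver at embryonic day 14 was measured in 1 group of 2 libraries with 97174777 and 149348514 expected counts on genes. The authors deposited, per library, gene and transcript tables on mm10 with GENCODE M4 models, per the files that accompany them; no source used here names the aligner or quantifier. The deposited tables hold expected counts, TPM, FPKM, the percent of a gene's TPM held by each transcript, and the posterior SD of each count, which is a score. Depth behind a level is its expected count. The authors also deposited an mm9 gene table in RPKM and an mm9 list of splice junctions with read counts and an irreproducibility score, each with values for 2 replicates that the files do not tie to a library; these are printed as the authors' values with no SD.

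Members and lists were chosen with earlier results of these data known. Symbols, types and positions came from GENCODE M21 (GRCm38), in which 42462 of 43346 genes had a symbol. Named were all 32 members, other complement genes at 10 TPM or more in both libraries or past 1.5-fold, and the defining, highest or lowest cell type markers, from lists for hepatocytes, macrophages, neutrophils, stellate and mesenchymal, endothelial, erythroid, skeletal muscle, adipocyte and mesothelial cells. Expected counts were rounded, scaled by TMM (edgeR 4.0.16, R 4.3.3) and compared between libraries by a two-sided exact binomial test (scipy 1.17.1, Python 3.11.15) over 18572 genes with at least 10 counts, with Benjamini-Hochberg adjustment and a threshold of 0.05; the 1.5-fold count used genes with at least 100 counts. With 2 libraries this compares libraries, and counting error is its only error. Ratios between genes used a pseudocount of 0.1 TPM on the log2 scale for mean and SD. Intervals are exact (Clopper-Pearson) at 95%, and 0 allows 3 counts; both cover counting error only, since reads carry no molecular identifiers. Alternatives were other scalings (DESeq2 1.42.0 size factors, library totals, unscaled TPM), filters, pseudocounts, units, edgeR's exact test, and leaving out each library. Protein sequences were not used here.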

Additional observations from a re-analysis of the deposited data

How the results depend on the processing

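Of 120 values recomputed under alternatives, 79 stayed within the spread or count limit set for them, 40 moved and 1 reversed. The 79 include arm medians and gene ratios with a library left out. Those could not move past the SD of the 2 libraries, so they say nothing about stability. As the mean of log2 values, the arm medians became 12.4 (classical), 6.34 (lectin), 16.0 (alternative), 4.27 (terminal) and 20.4 TPM (regulators). In FPKM they were 22.1, 13.2, 101.3, 14.5 and 46.9, with 0.94 for receptors, and in mm9 RPKM 5.00, 2.90, 14.95, 3.23, 8.23 and 0.289. Among genes with at least 10 counts the alternative and terminal medians were 153.4 and 15.3 TPM. Per longest model, an alternative chosen after seeing the data, lectin, alternative, terminal and regulator medians were 6.43, 54.1, 9.55 and 32.9 TPM.

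C8g over C8a reversed in mm9 RPKM (log2 ratio -0.18, against 0.70 in TPM). There, the log2 ratios were 2.11 for C4b over C4a, 1.39 for C1qb over C1qa, 0.94 for C1qb over C1qc, 3.48 for Mbl1 over Mbl2, -0.57 for C8a over C8b, -1.26 for C1ra over C1s1 and 2.85 for Cfb over C2. With a pseudocount of 1, C4b over C4a was 0.98, Mbl1 over Mbl2 3.16, C8a over C8b -0.60 and C1ra over C1s1 -2.12; with none, Mbl1 over Mbl2 was 4.18. Per longest model, C4b over C4a was 3.13, C8a over C8b -0.91, C1ra over C1s1 -1.76 and Cfb over C2 2.94. The cause of these shifts was not tested.

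edgeR's exact test called 0 members, beside 2.54% of all genes, against 12 members in the binomial test. At an unadjusted p under 0.05 edgeR's test had 0 members and 1098 of all genes. All 12 of the binomial test were called in the same direction with DESeq2 size factors, library totals, no filter and at least 100 counts. Library totals called 17 members, beside 45.3% of all genes. Taking library totals gave 22 members higher in replicate 2 and 8 lower, and unscaled TPM 26 and 4, against 16 and 14 with TMM. Leaving out a library gave 24 or 25 members at 1 TPM. Ratios of single members past 1.5-fold gave no value, since 0 passed. No paired analysis was possible because the series has 1 group. Depth limits what can be said of Cfd and C7.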
